A study of Mus musculus with 2 samples.

Results

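The cells described here were selected from lung cell suspensions as candidate alveolar myofibroblasts, the stromal cells that carry *Ltbp2*, *Aspn*, *Wnt5a* and *Pappa2*. A cell was selected when it held no UMI (unique molecular identifier, a count of an RNA molecule) of *Ptprc*, *Cdh5* or *Epcam*, genes of blood, endothelial and epithelial cells. It also held at least 4 UMIs of *Aspn*, *Wnt5a*, *Pappa2* and *Ltbp2* together, and no fewer of these than of 4 alveolar fibroblast genes (*Tcf21*, *Scube2*, *Col13a1*, *Ogn*) or of 4 adventitial fibroblast genes (*Pi16*, *Serpinf1*, *Clec3b*, *Col14a1*). The rule took 480 of 3809 cells from room air and 932 of 11711 cells from hyperoxia. All these genes chose the cells, so their levels are descriptions of the rule and not findings.

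The study raised C57BL/6 mice (wild-type C57BL/6J in the methods) from birth to P14 in room air (21% oxygen) or in hyperoxia (80% oxygen), an exposure used to model the arrested alveolar growth of preterm lungs. Lungs of 8 mice were pooled in each group, made into a single-cell suspension and sequenced as 1 droplet library for each group. With no replicate library, mice within a group cannot be told apart, and no difference between room air and hyperoxia could be tested. Intervals below are 95% intervals that cover counting error alone, exact for levels (Poisson), shares (Clopper-Pearson) and ratios (conditional). The interval of a difference of shares combines the Clopper-Pearson limits of both shares and is not exact.

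The room air library held 39593888 UMIs in 4234 barcodes and the hyperoxia library 111934936 UMIs in 13223 barcodes. A barcode was kept as a cell if it had 500 or more genes and no more than 20% mitochondrial UMIs. The selected cells held 6206376 UMIs in room air and 10639483 in hyperoxia, with medians of 13270.5 and 11273 UMIs for each cell. Median ribosomal protein shares were 10.99% and 8.99%, and mitochondrial shares 2.93% and 3.15%. The libraries shared 17 barcodes, and 1 barcode was selected in both. Levels are given as CPM, the counts of a gene for each 1000000 UMIs summed over the cells named.

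Alveolar myofibroblasts lie at the tips of the growing septa that divide the airspaces after birth. They lay down elastin, contract through smooth muscle actin, and depend on PDGF-A from the epithelium, received by *Pdgfra*. In the mouse they are abundant while septa form and become scarce once alveoli have matured.

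Selected cells made up 12.6% (11.6 to 13.7) of kept cells in room air against 7.96% (7.47 to 8.46) in hyperoxia, a difference of -4.64 percentage points (-5.84 to -3.49). They were 52.5% and 31.2% of the cells without *Ptprc*, *Cdh5* or *Epcam* UMIs, which numbered 915 and 2983. The share was lower in hyperoxia on both bases, and the difference arose at more than 1 step of the rule. Cells with at least 4 UMIs of the selecting genes were 16.3% and 14.6% of kept cells (622 and 1715), and 491 and 971 of them also had no fewer of these than of the alveolar fibroblast genes. The cells counted as *Tcf21* fibroblasts were 21.0% and 34.2% of the cells without *Ptprc*, *Cdh5* or *Epcam* UMIs. What dissociation and pooling contributed to these shares was not tested.

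Most selected cells lay well above the threshold of the rule. The sum of the 4 selecting genes was at least 20 UMIs in 398 room air and 720 hyperoxia cells. It was 4 or 5 in 10 and 37 selected cells, and 2 or 3 in 12 and 41 cells left outside. Just inside the threshold *Tnc* stood at 53.7 CPM in room air against 241 CPM in hyperoxia, just outside at 458 and 93.3 CPM, and at sums of 20 or more at 1020 and 1087 CPM. The cells just outside had medians of 1712.5 and 2032 UMIs, so the threshold fell partly on shallow cells.

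Tenascin C (*Tnc*), a matrix glycoprotein of growing septa, was the marker that the rule did not use. It was found at 958 CPM (934 to 983) in room air against 976 CPM (957 to 995) in hyperoxia. At full depth 79.8% and 80.9% of selected cells held a *Tnc* UMI, against 4.96% and 5.33% of B cells, whose median depths were 5000 and 3130 UMIs. After cells were thinned to 2000 UMIs, which left out 10 and 25 selected cells and 14 and 84 B cells with fewer, the shares were 65.5% and 67.9% in selected cells and 2.74% and 3.18% in B cells. *Tnc* was therefore above the level of free RNA in both libraries. The selecting genes stood at 2960 and 3856 CPM (*Aspn*), 2102 and 2013 CPM (*Ltbp2*), 960 and 680 CPM (*Wnt5a*) and 160 and 371 CPM (*Pappa2*) in room air and hyperoxia.

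The label could not be taken to hold for all of the selected cells. The summed UMIs of *Cspg4*, *Cox4i2*, *Higd1b*, *Notch3* and *Trpc6*, genes of pericytes, reached 4 or more in 112 room air cells (23.3%, 19.6 to 27.4) and 222 hyperoxia cells (23.8%, 21.1 to 26.7). These are called pericyte-gene-high cells below, and the remaining 368 and 710 pericyte-gene-low cells, a division chosen after the data had been seen. Near the cut, 9 and 33 cells had 4 or 5 such UMIs while 41 and 151 had 2 or 3. Most pericyte-gene-high cells lay far above it, with sums of 20 or more in 85 and 126 cells and of 6 to 19 in 18 and 63. The sum was 0 in 224 and 349 selected cells. In 83 and 125 selected cells the pericyte sum exceeded the sum that selected them. Because of these cells, the whole set is called the selected cells and not by the type name.

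The pericyte-gene-high range differed from the rest in genes that neither sum used. *Pdgfrb*, the PDGF-B receptor of mural cells, stood at 1518 CPM in room air against 846 CPM in hyperoxia in the high range, against 184 and 162 CPM in the low range. *Ndufa4l2*, a mitochondrial protein gene, stood at 1154 and 870 CPM against 2.43 and 4.39 CPM. *Gucy1a3*, a subunit of the nitric oxide receptor, stood at 4695 and 2195 CPM against 167 and 136 CPM. In the other direction, *Tnc* was at 219 and 400 CPM in the high range and 1149 and 1148 CPM in the low range. *Tgfbi*, a matrix protein induced by TGF-beta, was at 365 and 443 CPM against 2094 and 1957 CPM, and *Pdgfra* at 81.7 and 46.6 CPM against 579 and 308 CPM. Median values over cells, in counts for each 10000 UMIs, were 0 and 0 for *Tnc* in the high range and 10.5 and 10.3 in the low range, and for *Pdgfrb* 18.2 and 9.28 against 1.45 and 1.17. *Tnc*, *Tgfbi* and *Pdgfra* were thus higher in the low range, but not every myofibroblast marker was: *Acta2* stood at 1835 and 4059 CPM in the high range against 1163 and 1735 CPM in the low range.

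**Figure D1:**
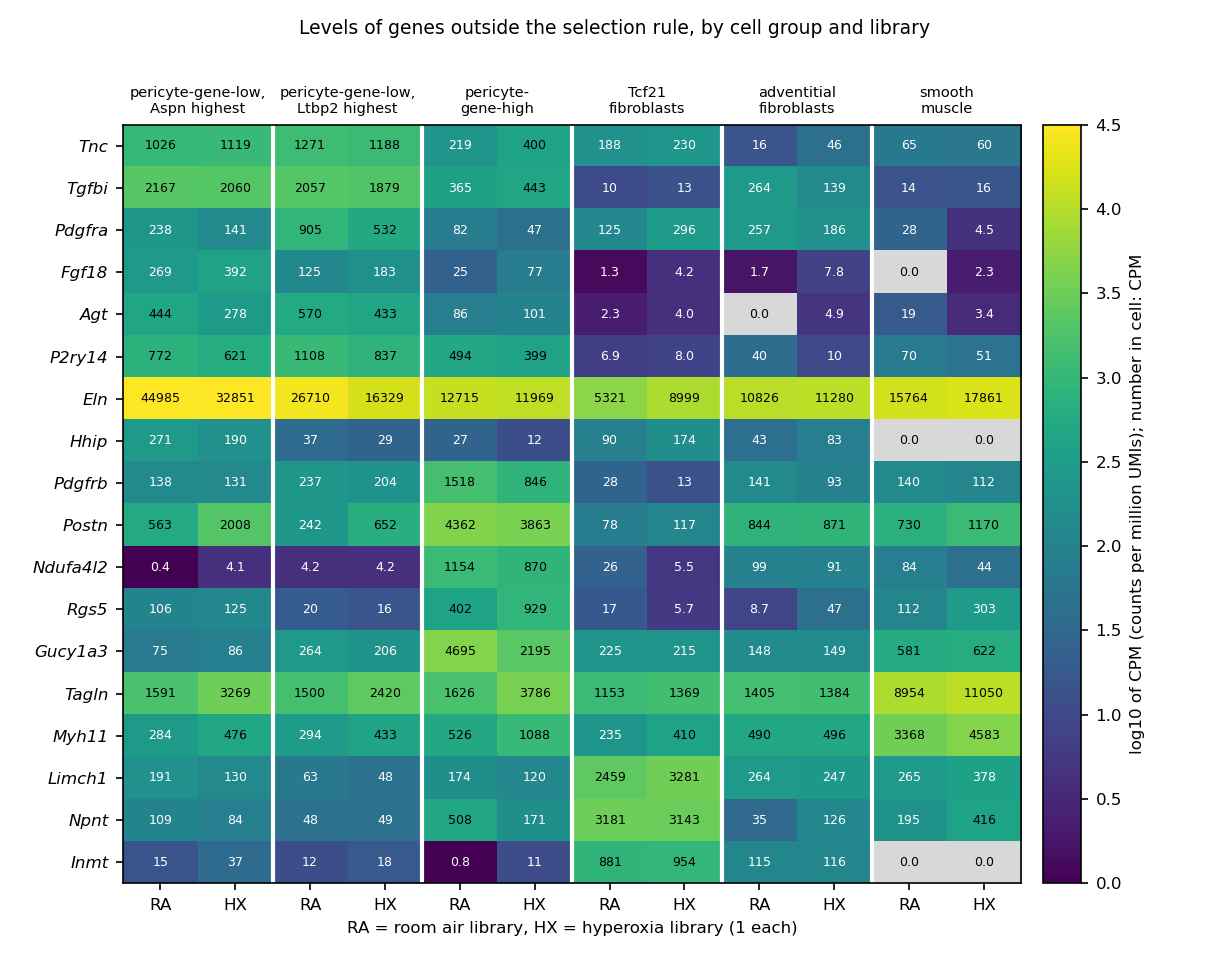
Levels (CPM, log10 color scale, value printed in each field) of 18 genes outside the selection rule in 6 cell groups, with the room air and the hyperoxia library side by side; gray fields hold no UMI. *Tgfbi* and *Agt* are high in both pericyte-gene-low ranges and *Ndufa4l2* in the pericyte-gene-high range, where it stood at 1154 and 870 CPM.

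The main comparison group was the alveolar fibroblasts chosen by *Tcf21*, *Scube2*, *Col13a1* and *Ogn*, with 192 cells in room air and 1021 in hyperoxia. Among genes outside the rules, those highest in the selected cells relative to this group in both libraries included secreted signals and matrix genes. Room air values come first, and the hyperoxia ratio follows. The BMP antagonist *Grem1* stood at 60.1 CPM in selected cells and 0.327 CPM in *Tcf21* fibroblasts in room air, a ratio of 184 that rests on 1 UMI in the fibroblasts (32.8 to 7279), and the hyperoxia ratio was 339. *Tgfbi* stood at 1740 and 10.1 CPM (ratio 172, 121 to 253), and the hyperoxia ratio was 124. *Wnt11*, a ligand of noncanonical Wnt signaling, stood at 242 and 1.96 CPM (123, 56.4 to 336), then 112 in hyperoxia. *Agt*, which encodes angiotensinogen, stood at 419 and 2.29 CPM (183, 88.8 to 456), then 71.0 in hyperoxia (53.2 to 96.8). *P2ry14*, a receptor for UDP-glucose, stood at 853 and 6.87 CPM (124, 81.2 to 201), then 79.5 in hyperoxia. *Fgf18*, a growth factor of the developing septum, stood at 162 and 1.31 CPM (124, 48.3 to 456), then 59.4 in hyperoxia. In room air *Lrrc15* had 162 UMIs in selected cells and none in *Tcf21* fibroblasts, at least 26.6-fold higher against a floor of 3 counts, and the homeobox gene *Meox1* was at least 46.8-fold higher. In hyperoxia the *Lrrc15* ratio was 1009 (181 to 39899), with 1 UMI in the fibroblasts, and that of *Meox1* 242, with 3 UMIs. Among the 12 genes furthest in the other direction, the following are given in room air: the methyltransferase *Inmt* (10.3 against 881 CPM), the carboxylesterase *Ces1d* (6.44 against 477 CPM), the retinoic acid binding protein gene *Crabp1* (2.26 against 308 CPM), the complement gene *C7* (0.967 against 158 CPM) and *Wnt2* (2.90 against 161 CPM). Both cell groups came from the same libraries, so these ratios carry no test.

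Within the pericyte-gene-low cells, the gene with the most UMIs among the selecting genes was *Aspn* in 171 room air and 402 hyperoxia cells and *Ltbp2* in 177 and 278 cells. These are ranges on the genes of the rule, named after the data were seen, and their sizes are not compared between libraries. Genes outside the rule were chosen for a difference between these ranges in both libraries. The hedgehog antagonist *Hhip* stood at 271 CPM in *Aspn*-highest and 37.1 CPM in *Ltbp2*-highest cells in room air, and at 190 and 28.6 CPM in hyperoxia. *Fgf9* stood at 81.8 and 9.18 CPM, then 128 and 8.04 CPM. *Grem1* stood at 140 and 17.9 CPM, then 233 and 13.99 CPM. *Lrrc15* stood at 66.4 and 0.834 CPM, then 183 and 1.49 CPM. The *Aspn*-highest cells also carried more *Eln*, which encodes elastin (in room air 44985 against 26710 CPM, in hyperoxia 32851 against 16329 CPM).

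Other genes were higher in the *Ltbp2*-highest cells. *Pdgfra* stood at 905 CPM in these cells and 238 CPM in *Aspn*-highest cells in room air, and at 532 and 141 CPM in hyperoxia. *Stc1*, a secreted glycoprotein hormone, stood at 267 and 25.1 CPM, then 241 and 10.5 CPM. The Wnt-responsive transcription factor *Lef1* stood at 47.1 and 6.16 CPM, then 63.1 and 5.45 CPM. *Ccnd1*, the cyclin of early G1, stood at 219 and 8.80 CPM, then 608 and 90.4 CPM. *Cd34*, a sialomucin of stromal and endothelial progenitors, stood at 499 and 60.3 CPM, then 660 and 102 CPM. *Tnc* differed far less between the ranges, and stood at 1271 CPM in *Ltbp2*-highest and 1026 CPM in *Aspn*-highest cells in room air.

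**Figure D2:**
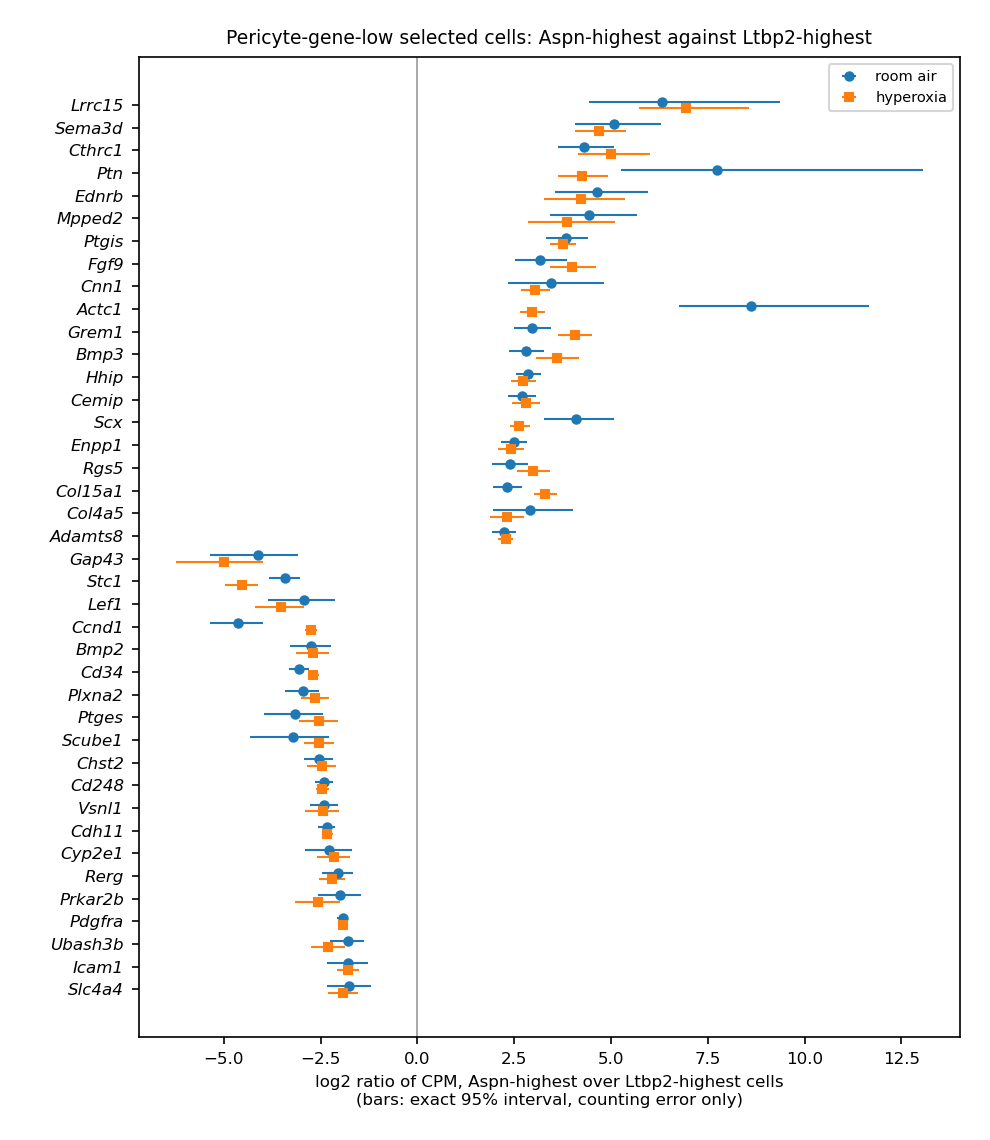
Log2 ratio of CPM in *Aspn*-highest over *Ltbp2*-highest cells of the pericyte-gene-low range for 40 genes, with room air and hyperoxia points and exact 95% counting intervals. The genes were chosen for their difference in both libraries, so the agreement in sign follows from the choice and the plot shows sizes.

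Across the selected cells, 8601 genes had a mean of at least 10 CPM over the libraries. Of these, 156 (1.81%) were at least 2 times higher in hyperoxia and 91 (1.06%) at least 2 times lower, and the median log2 ratio over all of them was 0.01. In pericyte-gene-low cells 8468 genes were measured, 166 (1.96%) were higher and 99 (1.17%) lower by this measure, with a median of 0.02. The pericyte-gene-high cells had larger shares: of 8671 genes 323 (3.73%) were higher and 290 (3.34%) lower, with a median of -0.02. For *Tcf21* fibroblasts 221 of 8564 genes (2.58%) were higher and 143 (1.67%) lower. Gene lists are read against the shares of the same cells.

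Of the lists measured, the highest median ratio belonged to targets of p53, the transcription factor activated by DNA damage. Of 16 measured targets 9 were at least 2 times higher and none lower, with a median log2 ratio of 1.48. Their summed level was 1170 CPM in room air against 3316 CPM in hyperoxia. *Cdkn1a*, which encodes the cell cycle inhibitor p21, stood at 47.7 CPM (42.4 to 53.4) in room air against 862 CPM (844 to 880) in hyperoxia, a ratio of 18.1 (16.1 to 20.4). A *Cdkn1a* UMI was found in 19.4% and 87.4% of selected cells, and in 9.04% and 20.8% of B cells. At 2000 UMIs for each cell these shares were 5.11% and 63.7%, against 1.82% and 13.9% in B cells. The hyperoxia level was thus spread over most selected cells and lay above that of B cells. It did not lie above that of *Cdh5* positive cells, which stood at 165 and 1018 CPM, while *Ptprc* positive cells stood at 232 and 479 CPM and *Epcam* positive cells at 95.95 and 374 CPM. In the pericyte-gene-high range *Cdkn1a* stood at 24.4 and 785 CPM, and in the low range at 53.7 and 885 CPM.

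Other p53 targets moved with *Cdkn1a*. The receptor gene *Eda2r* stood at 4.35 CPM (27 UMIs) in room air against 32.5 CPM in hyperoxia (ratio 7.48, 5.05 to 11.5). The stress cytokine gene *Gdf15* stood at 10.8 and 56.2 CPM (ratio 5.21, 4.04 to 6.81). The pro-apoptotic *Bax* stood at 131 and 359 CPM (2.75), the AKT inhibitor *Phlda3* at 60.7 and 213 CPM (3.51), cyclin G1 (*Ccng1*) at 27.2 and 100.005 CPM (3.67), *Zmat3* at 33.5 and 102 CPM and *Trp53inp1* at 56.6 and 170 CPM. These ratios were 2 or more, while the antiproliferative *Btg2* stood at 574 and 1117 CPM (1.95) and did not reach it. In *Tcf21* fibroblasts of the same libraries 8 of 15 measured targets were at least 2 times higher and none lower, with a median log2 ratio of 1.02. Over all genes of that group 2.58% were higher and 1.67% lower. There *Cdkn1a* stood at 38.9 and 661 CPM (17.0), *Bax* at 117 and 237 CPM (2.03) and *Phlda3* at 248 and 323 CPM (1.30). In the 19 and 90 smooth muscle cells *Cdkn1a* stood at 79.1 and 189 CPM. The p21 difference was therefore of like size in both fibroblast groups, and the differences between cell groups were not tested.

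**Figure D3:**
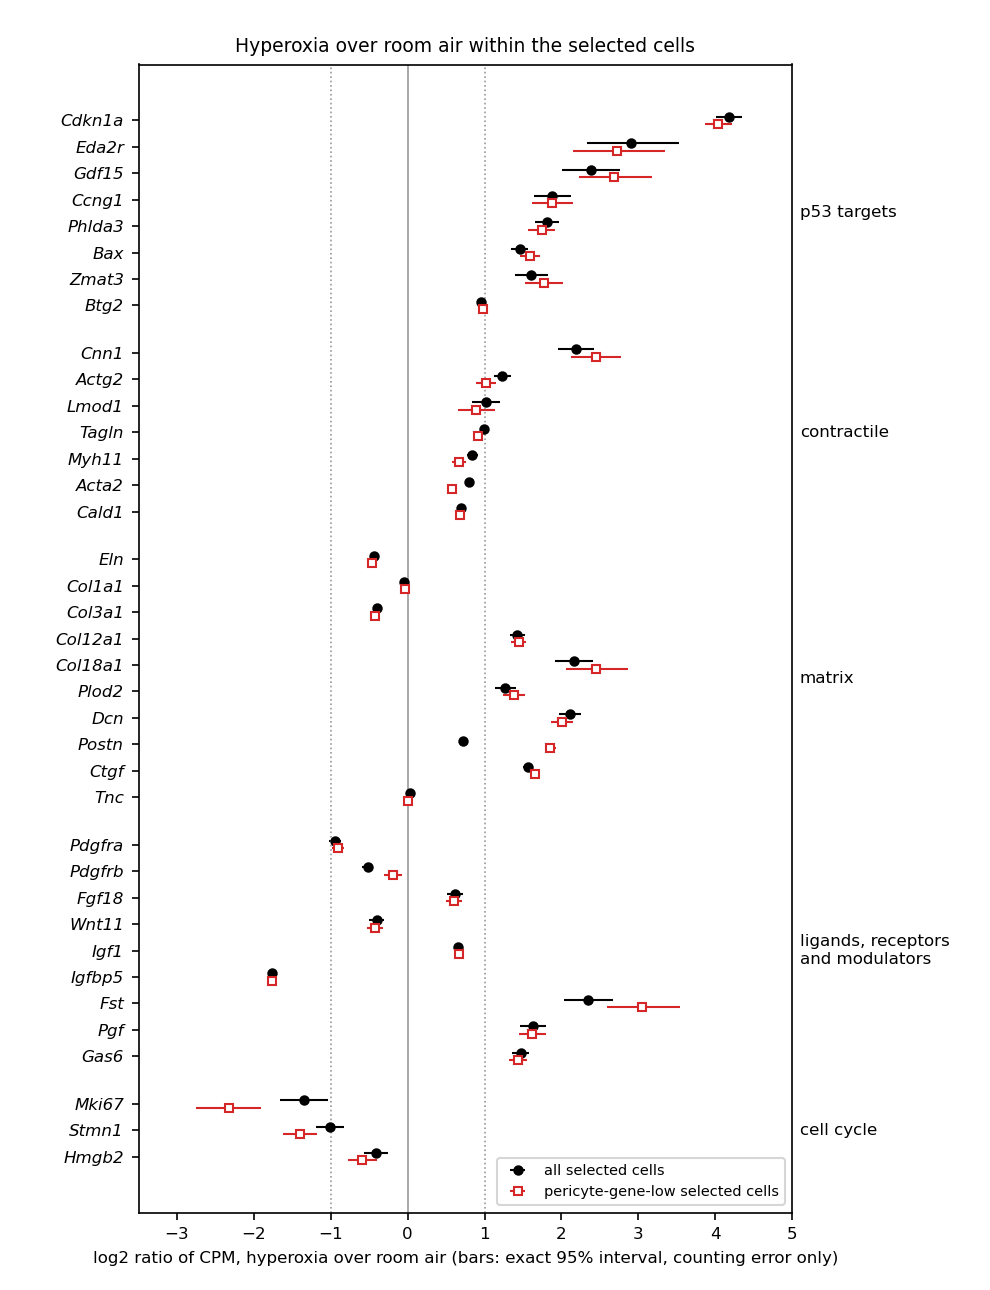
Log2 ratio of CPM, hyperoxia over room air, for a selection of named genes in all selected cells (circles) and in pericyte-gene-low cells (squares), with exact 95% counting intervals and dotted lines at 2-fold in each direction. *Cdkn1a* lies at 4.18 in all selected cells, and *Postn* differs between the 2 sets of cells.

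Most genes of the contractile apparatus had a higher level in hyperoxia. Of 20 genes 18 had a ratio above 1, against 4421 of 8601 over all genes measured, 3 were at least 2 times higher and none was 2 times lower, with a median log2 ratio of 0.49. The summed level was 11052 CPM in room air against 16711 CPM in hyperoxia. Calponin (*Cnn1*), an actin-binding regulator of smooth muscle, stood at 27.2 and 124 CPM (4.56). *Cnn1* was found in only 42 room air and 209 hyperoxia cells, with 46.7% and 16.2% of its UMIs in 5 cells. Without the 5 highest cells of each library its log2 ratio was 2.84. Gamma smooth muscle actin (*Actg2*) stood at 134 and 315 CPM (2.35) and leiomodin (*Lmod1*) at 52.0 and 105 CPM (2.02). Transgelin (*Tagln*) stood at 1554 and 3091 CPM (1.99, 1.94 to 2.04) and smooth muscle actin (*Acta2*) at 1301 and 2269 CPM (1.74, 1.70 to 1.79). The difference was present in each range: *Acta2* stood at 1163 and 1735 CPM in pericyte-gene-low cells and at 1835 and 4059 CPM in pericyte-gene-high cells. At least 2 times higher were 2 of 20 genes in the low range (median 0.40, against 1.96% of all genes there). In the high range these were 7 of 20 (median 0.59, against 3.73% of all genes there). None was 2 times lower in either range. In *Tcf21* fibroblasts *Acta2* stood at 1522 and 1561 CPM.

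Smooth muscle markers overlap with this list, which holds 7 of the 8 measured. The 3 at least 2 times higher were the same genes, *Cnn1*, *Actg2* and *Lmod1*, with a summed level of 1214 and 2174 CPM, desmin (*Des*) the most abundant at 368 and 672 CPM, and 1 of the 10 listed genes at 0 in room air. The smooth muscle sum counted UMIs of *Myh11*, *Cnn1*, *Des* and *Actc1*, and in 16 and 65 selected cells it exceeded the selecting sum. When pericyte and smooth muscle sums also had to be no higher than the selecting sum, 2 contractile genes were higher and 1 lower. The contractile median was then 0.37. This filter removed cells by their levels of *Cnn1* and *Myh11*, contractile genes themselves, so these values partly follow from the filter. What part cells of the smooth muscle lineage had in the contractile difference was not tested.

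Elastic fiber genes differed little as a group. Of 16 measured, 1 was at least 2 times higher and none lower, with a median log2 ratio of -0.08. *Eln* stood at 30715 CPM in room air against 22579 CPM in hyperoxia (0.735, 0.731 to 0.740), whereas in *Tcf21* fibroblasts it stood at 5321 and 8999 CPM (1.69). The gene past 2-fold was *Ltbp1*, which tethers latent TGF-beta to the matrix, at 24.5 and 53.9 CPM. The microfibril protein gene *Mfap5* stood at 515 and 280 CPM and fibrillin 1 (*Fbn1*) at 802 and 987 CPM. The *Eln* ratio was below 1 in both lead-gene ranges, at 0.730 in *Aspn*-highest and 0.611 in *Ltbp2*-highest cells.

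Collagens moved unequally. Of 19 measured collagen genes 6 were at least 2 times higher and none lower, with a median log2 ratio of 0.36. The main fibrillar collagens did not pass 2-fold, with *Col1a1* at 2696 and 2600 CPM and *Col3a1* at 5641 and 4286 CPM. The fibril-associated *Col12a1* stood at 176 and 473 CPM (2.69) and the basement membrane collagen *Col18a1* at 24.97 and 112 CPM (4.48). *Col11a1* also passed 2-fold, with 87.7% of its hyperoxia UMIs in 1 cell. In pericyte-gene-low cells 3 of 17 collagens were at least 2 times higher, against 1.96% of all genes there, with a median of 0.38. In pericyte-gene-high cells 8 of 19 were, against 3.73% of all genes there, with a median of 0.37. Of 12 collagen processing genes 1 was higher, the lysyl hydroxylase *Plod2* at 91.4 and 221 CPM, and the median log2 ratio was 0.07.

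Of 27 matrix glycoproteins and proteoglycans 3 were at least 2 times higher and none lower, with a median of 0.16. In pericyte-gene-low cells 5 were higher and 1 lower, against 1.96% and 1.17% of all genes there. Under a lower-depth rule 6 were higher and 2 lower. That rule thinned cells to 3000 UMIs, left out the 603 and 2535 kept cells with fewer, and selected at 2 UMIs of the selecting genes in place of 4, so depth, threshold and cells changed together. Decorin (*Dcn*), a collagen-binding proteoglycan, stood at 75.4 CPM in room air against 325 CPM in hyperoxia (4.31, 3.92 to 4.76). Connective tissue growth factor (*Ctgf*), a target of TGF-beta and YAP, stood at 494 and 1456 CPM (2.95, with 3.95 in *Tcf21* fibroblasts). Periostin (*Postn*), a matricellular protein, stood at 1205 and 1979 CPM, which hides a difference between ranges. In pericyte-gene-low cells *Postn* stood at 391 and 1417 CPM (3.62, 3.45 to 3.80), and in pericyte-gene-high cells at 4362 and 3863 CPM (0.886, 0.857 to 0.916). Scleraxis (*Scx*), a transcription factor of tendon cells, stood at 35.9 and 135 CPM (3.74). In the *Aspn*-highest cells *Scx* stood at 85.8 and 254 CPM, *Postn* at 563 and 2008 CPM, *Ctgf* at 667 and 2141 CPM and *Dcn* at 138 and 576 CPM, so all 4 were past 2-fold there.

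None of 5 measured PDGF genes passed 2-fold, and 2 had a ratio above 1, with a median log2 ratio of -0.38. With no minimum level 7 genes were measured, 2 were higher and the median was 0.10. *Pdgfra* stood at 477 CPM (460 to 494) in room air against 248 CPM (238 to 257) in hyperoxia, a ratio of 0.519 (0.493 to 0.548). At 2000 UMIs for each cell a *Pdgfra* UMI was found in 41.5% and 27.7% of selected cells and in 1.82% and 1.69% of B cells. Without thinning these shares were 64.4% and 52.6%, against 4.37% and 3.58%. The ratio was 0.593 in *Aspn*-highest and 0.588 in *Ltbp2*-highest cells. In *Tcf21* fibroblasts *Pdgfra* lay in the opposite direction, at 125 and 296 CPM (2.38, 2.14 to 2.65). The receptor thus had a lower level in hyperoxia in each range of selected cells and a higher one in *Tcf21* fibroblasts. This contrast was not tested.

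Insulin-like growth factor genes differed in both directions. Of 12 measured, 2 were at least 2 times higher and 1 lower, with a median of 0.40. *Igfbp5*, a binding protein that holds IGF in the matrix, stood at 2202 CPM (2165 to 2239) in room air against 649 CPM (634 to 664) in hyperoxia, a ratio of 0.295 (0.286 to 0.303). It was 0.294 in pericyte-gene-low cells, 0.318 in pericyte-gene-high cells, 0.542 in *Tcf21* fibroblasts and 0.166 in smooth muscle cells. *Pappa2*, a protease that cleaves IGF binding proteins, was higher, but it is a gene of the rule. *Igf1* stood at 877 and 1381 CPM (1.57) and *Igf2* at 8.70 and 39.2 CPM (4.505), the latter found in 108 hyperoxia cells with 45.3% of its UMIs in 5 of them. Another binding protein gene, *Igfbp6*, stood at 10.6 and 32.1 CPM, with 45.3% of its hyperoxia UMIs in 5 cells.

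In each of the other signaling lists no more than 2 genes passed 2-fold over all selected cells. Of 32 genes of TGF-beta, activin and BMP signaling 1 was higher, the activin antagonist *Fst* at 14.7 and 74.4 CPM (5.08), and 1 lower, *Gdf10* at 54.1 and 24.8 CPM, with a median of 0.09. In pericyte-gene-high cells 4 of 31 were higher and 1 lower, with a median of 0.12, against 3.73% and 3.34% of all genes there. Of 20 Wnt genes 1 was higher, *Sfrp1* at 5.32 and 17.0 CPM, and *Wnt11* stood at 242 and 182 CPM. The Wnt median was 0.05, with no stable sign. It was 0.19 in pericyte-gene-low cells and -0.39 in pericyte-gene-high cells (2 of 18 lower, against 3.34% of all genes there). Without simulated doublets it was -0.017, with 5 lineage genes at 0 -0.10 and with a mean over cells -0.11. Of 16 FGF genes 1 was higher, the transcription factor *Etv4* at 16.1 and 34.2 CPM, with a median of 0.06. *Fgf18* stood at 162 and 248 CPM (1.53). None of 10 hedgehog genes passed 2-fold, with a median of -0.18, the receptor *Ptch1* at 181 and 130 CPM and *Hhip* at 125 and 94.7 CPM. In pericyte-gene-high cells 2 of 9 hedgehog genes passed 2-fold, both lower, with a median of -0.30, against 3.34% of all genes lower there. None of 21 guidance and adhesion genes passed it over all selected cells, with a median of -0.14, but the sign of that median was not stable. It was 0.17 in pericyte-gene-low cells (2 higher, 1 lower) and 0.28 in pericyte-gene-high cells (2 of 19 higher, against 3.73% of all genes there). Without simulated doublets it was 0.15, and under the lower-depth rule 0.10. The 17 myofibroblast markers outside the rule held none past 2-fold over all selected cells, with a median of -0.23. In pericyte-gene-low cells 1 was lower, *Mustn1*, with a median of -0.28, and in pericyte-gene-high cells 3 were higher and 1 lower, with a median of 0.24. Over all genes of the pericyte-gene-high range 3.73% were higher and 3.34% lower.

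Genes named for the size of their difference, among those with a mean of at least 50 CPM and no higher level in *Ptprc*, *Cdh5* or *Epcam* positive cells, add other roles. Placental growth factor (*Pgf*), a VEGF receptor 1 ligand, stood at 58.8 CPM in room air against 182 CPM in hyperoxia (3.09, 2.77 to 3.47). *Gas6*, a ligand of the Axl and Mertk receptors, stood at 130 and 361 CPM (2.78), and the epoxide hydrolase *Ephx1* at 46.9 and 150 CPM. *Gria3*, a glutamate receptor subunit, stood at 34.8 and 117 CPM, and *Lrrc15* at 26.1 and 86.2 CPM. In *Tcf21* fibroblasts *Pgf* stood at 2.94 and 6.41 CPM, so both of its values were far lower there than in selected cells. At the other end, neuronatin (*Nnat*) stood at 135 and 24.2 CPM (0.179, 0.155 to 0.206), the calcium sensor *Vsnl1* at 173 and 53.8 CPM, the metalloprotease *Adamts17* at 121 and 35.2 CPM, and the procollagen proteinase enhancer *Pcolce2* at 215 and 78.2 CPM. *Qpct*, *Kazald1*, *Lcorl*, *Prss35* and the CDK inhibitor *Cdkn2c* were the other lower genes of this kind. *Fam162b* stood at 131 and 51.6 CPM in all selected cells and at 564 and 190 CPM in pericyte-gene-high cells, and *Emid1* at 111 and 49.7 CPM and at 515 and 195 CPM. Both were scarce in pericyte-gene-low cells, at 19.7 and 10.3 CPM for *Fam162b* and 6.89 and 6.47 CPM for *Emid1*.

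Cell cycle genes were scarce. Of 10 measured, none was higher and 5 were at least 2 times lower, with a median log2 ratio of -0.75 and summed levels of 406 and 231 CPM. These calls were not stable. With 5 lineage genes at 0 none of 6 was lower (median -0.12), and under the lower-depth rule none of 4 (-0.20). With a mean over cells 1 of 6 was lower (-0.17). The ranges differed in sign: in pericyte-gene-low cells 4 of 7 were lower with a median of -1.40, and in pericyte-gene-high cells none of 11 was lower, 8 had a ratio above 1 and the median was 0.14. Over all genes of the high range 3.34% were lower and 4153 of 8671 had a ratio above 1. For some genes these counts rest on few cells: 1 room air cell held 87.8% of the *Cenpf* UMIs, 1 held 81.7% of *Ube2c* and 1 held 62.6% of *Top2a*. Without the 5 highest cells of each library the log2 ratio was 0.14 for *Top2a*, -1.22 for *Mki67*, -1.0 for *Ube2c* and -0.82 for *Stmn1*, and *Cenpf* had no UMI left in room air. At least 3 UMIs of *Mki67* and *Top2a* were found in 14 selected cells in room air (2.92%, 1.60 to 4.85) and 9 in hyperoxia (0.966%, 0.442 to 1.83). In pericyte-gene-low cells these numbered 13 of 368 and 2 of 710. Among B cells, which divide themselves, such cells were 2.62% and 4.78%. The selected cells so counted were few in both libraries, and their difference between ranges rests on these small numbers. In *Tcf21* fibroblasts 6 of 9 measured cell cycle genes were at least 2 times lower and none higher, with a median of -1.18. Over all genes of that group 1.67% were lower.

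Stress and inflammation lists differed in how many genes passed 2-fold. Of 17 antioxidant genes 2 were higher, the metallothioneins *Mt1* (32.5 and 102 CPM) and *Mt2* (6.28 and 17.6 CPM), with a median of 0.09. None of 15 HIF targets and glycolysis genes passed 2-fold, with a median of 0.07. Of 17 inflammation and interferon genes 3 were higher and 1 lower, with a median of 0.19, and with no minimum level 8 of 26 were higher and 1 lower. In pericyte-gene-high cells 6 of 20 were higher and 3 lower, with a median of -0.0083, against 3.73% and 3.34% of all genes there. The chemokine *Ccl2* stood at 1.29 and 40.9 CPM, with 52.6% of its hyperoxia UMIs in 5 cells, *Cxcl1* at 42.4 and 114 CPM, and *Cxcl14* at 75.6 and 16.6 CPM. None of 18 immediate early genes passed 2-fold, but 15 had a ratio above 1 (4421 of 8601 over all genes), the median was 0.42 and the sum was 8835 and 11681 CPM, with *Egr1* the most abundant at 1408 and 1920 CPM. In pericyte-gene-high cells 4 of 18 immediate early genes were higher, against 3.73% of all genes there (median 0.74, sum 7155 and 11296 CPM). In pericyte-gene-low cells 1 of 18 was, against 1.96% of all genes there (median 0.34). In *Tcf21* fibroblasts 18 of 18 had a ratio above 1, against 4533 of 8564 over all genes there. Of these 18, 2 were at least 2 times higher (2.58% of all genes there), with a median of 0.76 and a sum of 8069 and 13156 CPM. Immediate early genes respond to tissue dissociation, whose part was not tested.

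Markers of other cells were measured in the selected cells for comparison. Of 5 measured epithelial markers 2 were at least 2 times higher, with a sum of 555 CPM in room air against 897 CPM in hyperoxia, and *Sftpc* the most abundant at 194 and 508 CPM. A *Sftpc* UMI was found in 90.6% and 96.2% of selected cells and in 85.7% and 92.3% of B cells, and at 2000 UMIs in 33.0% and 53.8% against 51.7% and 78.6%. *Sftpc* in selected cells was thus at the level of free RNA. Of 5 immune markers none passed 2-fold (139 and 173 CPM in sum, *Lyz2* highest at 52.8 and 81.9 CPM). Of 4 endothelial markers none did (123 and 123 CPM, *Ramp2* highest at 70.7 and 44.4 CPM). The rule set *Ptprc*, *Cdh5* and *Epcam* to 0.

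Of 10 pericyte markers 1 was higher, *Rgs5*, with a sum of 3774 and 3900 CPM and *Postn* the most abundant. The sums of the ranges moved in opposite directions: the sum was 714 and 1747 CPM in pericyte-gene-low cells (2 of 6 higher, median 0.38) and 15634 and 11107 CPM in pericyte-gene-high cells (1 of 10 higher, 2 lower, median -0.29). Nearly all of the difference in the low range came from *Postn*, at 391 and 1417 CPM there. Because the ranges were divided by pericyte genes, sums, counts and medians of such markers by range partly follow from the division. *Postn* was not among the genes of the division. Over all genes 1.96% were higher in the low range, and 3.73% were higher and 3.34% lower in the high range. Of 8 *Tcf21* fibroblast markers 1 was higher, *Inmt*, with a sum of 508 and 379 CPM, *Npnt* highest at 164 and 94.7 CPM. Of 7 adventitial markers 1 was higher, *Dcn*, with a sum of 1791 and 1745 CPM, *Mfap5* highest. No mesothelial marker reached 10 CPM (7.09 and 27.4 CPM in sum). The 1 measured erythroid and the 1 measured Schwann cell marker did not pass 2-fold (33.4 and 36.3 CPM, 62.4 and 56.4 CPM in sum). Under the lower-depth rule, which changed threshold and cells as well as depth, 4 of 9 *Tcf21* fibroblast markers were higher with a median log2 ratio of 0.84, in place of -0.39, and the adventitial median was 0.18 in place of -0.15. In pericyte-gene-high cells the adventitial sum was 789 and 822 CPM and the *Tcf21* fibroblast sum 981 and 432 CPM. What part any of these cells had in the gene ratios was not tested.

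The pools also differed in sex-linked RNA. *Xist* stood at 183 CPM in room air against 320 CPM in hyperoxia. The Y-linked *Ddx3y* also stood higher, at 101 and 144 CPM (1.43, 1.30 to 1.57), and *Eif2s3y* at 28.2 and 39.3 CPM (1.39, 1.17 to 1.67). Of the 5 sex-linked genes 3 had a ratio above 1. *Xist* without Y-linked UMIs was found in 15.0% and 21.7% of selected cells, and Y-linked UMIs without *Xist* in 69.4% and 64.6%. In B cells the same shares were 18.4% and 23.0% for *Xist* and 48.7% and 43.5% for Y-linked UMIs. In *Tcf21* fibroblasts they were 6.77% and 29.7% for *Xist* and 80.2% and 59.3% for Y-linked UMIs, and *Xist* stood at 116 and 567 CPM (4.87), past 2-fold. In selected cells none of the 5 sex-linked genes passed 2-fold. What part the sex of the pooled mice had in other ratios, or in their contrast with *Tcf21* fibroblasts, was not tested.

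In the mm10 assembly with GENCODE M21, *Aspn* lies on chromosome 13 from 49544443 to 49567565, *Ltbp2* on chromosome 12 from 84783212 to 84876532 and *Tnc* on chromosome 4 from 63959785 to 64047015. *Cdkn1a* lies on chromosome 17 from 29090976 to 29100727, *Igfbp5* on chromosome 1 from 72857932 to 72874884, *Pdgfra* on chromosome 5 from 75152292 to 75198215 and *Postn* on chromosome 3 from 54361109 to 54391037.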

How the data were processed

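The authors counted UMIs with Cell Ranger, for which the processing notes, methods and matrix header give different versions, and the deposited counts are UMIs of 27998 genes in each barcode. Counts were summed over selected cells and scaled to CPM without further normalization. Genes were compared at a mean of at least 10 CPM, and a gene was called past a ratio of 2. Intervals of ratios were exact and were checked on simulated data. Genes are named by the rule: markers; list genes past 2-fold or most abundant; the 12 highest and 12 lowest ratios among 1828 of 3536 genes with a mean of at least 50 CPM; and the 12 furthest from *Tcf21* fibroblasts in each direction. The 1828 leave out mitochondrial, ribosomal protein, haemoglobin and sex-linked genes, and genes lower in selected cells than in *Ptprc*, *Cdh5* or *Epcam* positive cells of the library with the higher level. Other genes named for the ranges among selected cells, *Ccnd1* among them, were chosen after their values were seen. The members and lists were chosen with earlier results of these data known. Doublets were left in, and removed in an alternative with simulated doublets. *Ltbp4*, whose symbol stands on several lines, was not used. Alternatives changed cell filters, the rule, depth, scaling and gene minimum. Python 3.11.15, numpy 2.4.6, scipy 1.17.1, pandas 2.3.3, scikit-learn 1.9.0, R 4.3.3 and edgeR 4.0.16 were used.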

Additional observations from a re-analysis of the deposited data

Results flagged for a closer look

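In 3 genes the hyperoxia to room air log2 ratio was past 2-fold in the selected cells and past 2-fold the other way in *Tcf21* fibroblasts. *Nnat*, which encodes neuronatin, was at -2.48 in selected cells and 1.19 in *Tcf21* fibroblasts, and it was lower in both the pericyte-gene-low and the pericyte-gene-high range. *Rgs5*, a regulator of G protein signaling in mural cells, was at 1.06 and -1.57, and stood at 402 and 929 CPM in pericyte-gene-high cells against 61.2 and 77.5 CPM in pericyte-gene-low cells. *Col11a1*, a minor fibrillar collagen, was at 3.89 and -3.45, with 1 hyperoxia cell holding 87.7% of its UMIs in selected cells. None of these differences between cell groups was tested.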

How the results depend on the processing

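No paired analysis was possible because each group had 1 library, and no library could be left out. Alternatives with pericyte-gene-low cells, with barcodes of 1 library and with 5 lineage genes at 0 were chosen after seeing the data. Of 64 named genes past 2-fold, 64 were still past it with TMM factors, 57 in pericyte-gene-low cells, 56 with 5 lineage genes at 0 and 60 with a mean over cells; under a lower-depth rule 52 of 63 were. That rule thinned cells to 3000 UMIs, left out 603 and 2535 kept cells with fewer and selected at 2 UMIs in place of 4, so its values do not show the effect of depth alone. *Sftpa1* and *Sftpc* reversed under that rule, to log2 ratios of -0.066 and -0.034; the cause was not tested.

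The share of selected cells in room air and hyperoxia was 13.8% and 8.81% with a minimum of 1000 genes and a limit of 10% mitochondrial UMIs, 10.1% and 6.48% when pericyte and smooth muscle sums also had to be no higher, 16.5% and 11.7% of the 3206 and 9176 cells left under the lower-depth rule, 9.66% and 6.06% for pericyte-gene-low cells, 8.72% and 5.26% with 5 lineage genes at 0 (difference -3.46 points) and 0.0788% and 0.0342% with 7 lineage genes at 0 (difference -0.0446 points). That last rule left 3 and 4 cells, too few for gene ratios. Without simulated doublets the hyperoxia share was 8.63%. The share was lower in hyperoxia under each of these. Genes lower by 2-fold numbered 173 under the lower-depth rule. At a mean of 50 CPM 48 were higher and 29 lower, and with no minimum 1035 and 1059, so that 49.4% of genes past 2-fold were higher in place of 63.2%. Collagens past 2-fold numbered 3 in pericyte-gene-low cells (1.96% of all genes higher there), 8 in pericyte-gene-high cells (3.73%) and 2 at 50 CPM. Cell cycle genes lower by 2-fold numbered 0 under the lower-depth rule, 0 with 5 lineage genes at 0, 1 with a mean over cells, 1 at 50 CPM and 9 with no minimum. Fewer cells or genes entered several of these counts; the causes were otherwise not tested. The median of the collagen processing, immune, endothelial and erythroid lists also changed sign under at least 1 alternative.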

Other observations

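*Ccnd1* stood at 103 CPM in room air against 304 CPM in hyperoxia over all selected cells (2.96, 2.72 to 3.23), together with the higher *Cdkn1a*. In *Aspn*-highest cells *Ccnd1* stood at 8.80 and 90.4 CPM, and in *Tcf21* fibroblasts at 21.9 and 53.6 CPM. *Mustn1*, a small nuclear protein gene of muscle and bone, stood at 890 and 393 CPM in pericyte-gene-low cells and at 428 and 450 CPM in pericyte-gene-high cells. *Saa3*, an acute phase protein gene, had 1 UMI in the selected cells of room air, and 1 hyperoxia cell held 64.6% of its UMIs there.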
